A study of Mus musculus with 6 samples.

Results

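The genes described here encode the proteins of the cytosolic ribosome. They were taken from a mouse RNA sequencing table by name, as protein-coding genes called Rpl or Rps followed by digits, together with Rpsa, Rplp0, Rplp1 and Rplp2, and with the Rps6k kinases left out. This gave 80 of 54532 genes in the table, 49 for the large 60S subunit and 31 for the small 40S subunit. Of these, 77 had a mean of at least 0.5 FPKM (fragments per kilobase of gene, scaled to library depth) and were tested among 15874 genes, and the remaining 3 are described by their values.

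The study asked how chemotherapy-treated ovarian cancer cells alter the T cells they meet. The 6 libraries, 3 per group, were made from polyadenylated RNA of cells labelled as T cells after co-culture with ID8, a mouse ovarian surface epithelial cancer line. In the cisplatin group the ID8 cells had been pretreated with 40 µM cisplatin, a platinum drug that crosslinks DNA, and in the control group with PBS. The study's methods describe a single protocol for the T cells, with no difference between the groups: isolation from spleens of C57BL/6 mice aged 6 to 8 weeks with a pan T cell kit and activation for 72 h with beads carrying antibodies to CD3 and CD28 in the presence of 10 ng/mL IL-2. No library of T cells alone or of ID8 cells alone was analysed here. The sources used here do not say whether the 3 libraries of a group came from separate mice or cultures, so the p-values measure only the spread between these libraries, which may be technical.

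Each ribosome joins a 40S subunit, which holds the messenger and decodes it, to a 60S subunit, which forms the peptide bonds, and each subunit needs a single copy of nearly every protein. Ribosomal protein messengers carry a run of pyrimidines at the 5′ end, the TOP motif, through which mTOR signalling and the RNA-binding protein LARP1 set their translation. Resting T cells make few ribosomes, and activation through the T cell receptor, CD28 and IL-2 is known to raise ribosome production before division.

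Markers of other cells were present beside those of T cells, and their levels differed between the groups. All 25 T cell markers were tested, and 24 were higher and 1 lower in the cisplatin libraries, with a median log2 fold change of 0.59. Their summed level ran from 3236 to 3310 FPKM in the cisplatin libraries and from 2056 to 2185 FPKM in the controls. Of 17 tested ID8 markers, 16 were lower in the cisplatin libraries and none was higher, and the list summed to 284 to 291 FPKM against 1780 to 1870 FPKM in the controls. Krt19, a keratin of epithelial cells, was at 51.6 to 54.5 FPKM in the cisplatin libraries and at 626 to 661 FPKM in the controls. Of 10 B cell markers, 9 were higher, with a median log2 fold change of 0.60. Their summed level was 3606 to 3683 against 1676 to 1759 FPKM, most of it from Ighm alone (3188 to 3274 against 1393 to 1468 FPKM). Of 10 tested myeloid markers, 8 were higher and 1 lower (summed level 137 to 157 against 71.8 to 76.0 FPKM). The granulocyte genes S100a8 and S100a9 were at or near 0 in every library (at most 0.757 FPKM), and every T cell marker was at 10 FPKM or more. Bulk libraries cannot separate fewer cells of a type from less RNA per cell, and the part of this shift in the ribosomal protein results was not tested.

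Because these markers moved, fold changes are given on the deposited FPKM scale and, for the family, its groups and most named members, also on a second scale. The second scale subtracts from each library the mean log2 level of the T cell markers, which lowers the cisplatin over control log2 fold change of every gene by 0.53 and the median of all tested genes from 0.03 to -0.50. A direction stated on the deposited scale is therefore a direction relative to all RNA in the library, and the second scale reads relative to T cell marker messengers.

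The sequence around the transcription start is shown first, since messengers of this family are known for the pyrimidine run there. Promoter windows of 300 bases from RefSeq (GRCm38.p6) were found by symbol for 60 of the 80 genes. The windows below run from 50 bases before to 20 bases after the RefSeq start, 5′ to 3′ on the gene's strand. Those of Rps27 and Rps12 belong to members with the largest called changes, those of Rpl22 and Rps2 to members with the smallest called changes, Rpl7a had the lowest log2 fold change, Rpl5 and Rpl11 make up the 5S particle, and Rplp0 had the highest level. Capitals mark the longest run of C and T that lies within 20 bases of the start on either side.
Rps27 (chr3:90213629-90213698, minus strand): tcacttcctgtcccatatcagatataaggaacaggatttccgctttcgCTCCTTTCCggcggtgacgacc
Rps12 (chr10:23787190-23787259, minus strand): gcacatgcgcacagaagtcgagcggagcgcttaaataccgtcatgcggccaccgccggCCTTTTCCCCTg
Rpl22 (chr4:152325676-152325745, plus strand): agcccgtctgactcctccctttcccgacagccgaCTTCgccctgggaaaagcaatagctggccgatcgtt
Rps2 (chr17:24720013-24720082, plus strand): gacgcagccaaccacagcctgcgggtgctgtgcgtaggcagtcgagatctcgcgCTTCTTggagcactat
Rpl7a (chr2:26910757-26910826, plus strand): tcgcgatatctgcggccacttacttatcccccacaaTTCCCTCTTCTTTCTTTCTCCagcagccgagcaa
Rpl5 (chr5:107900478-107900547, plus strand): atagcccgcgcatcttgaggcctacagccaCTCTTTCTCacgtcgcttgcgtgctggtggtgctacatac
Rpl11 (chr4:136053374-136053443, minus strand): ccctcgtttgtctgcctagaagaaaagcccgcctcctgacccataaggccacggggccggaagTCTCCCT
Rplp0 (chr5:115559417-115559486, plus strand): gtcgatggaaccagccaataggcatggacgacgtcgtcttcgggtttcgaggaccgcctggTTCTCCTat

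A run of at least 8 C or T within 20 bases of the start was present in 27 of the 60 member windows (45.0%) and in 16.0% of 32851 RefSeq promoters. The run was 9 bases long in Rps27, 11 in Rps12 and 21 in Rpl7a, and only 4 bases long in Rpl22. Thus runs of 8 or more stood beside both the highest and the lowest log2 fold change. The median over the tested members was 0.38 with such a run (27 genes) and 0.36 without it (30 genes). The RefSeq start lay 3 bases from the principal transcript's start in Rps27, 43 in Rpl7a, 66 in Rps12, 141 in Rpl22 and 2614 in Rpl18. The printed Rpl22 window holds a longer run upstream of the bases searched. How the choice of start changes these counts was not tested. The letters CCGGAAG, a core bound by GABP and other ETS factors, occurred on either strand of 24 member windows (40.0%) against 8.86% of all promoters. GGGCGG, the core of SP1 sites, occurred in 35 (58.3%) against 35.7%, and AAGATGGC, a YY1 core that can share the letters AAG with the ETS core, in 4 (6.67%) against 2.75%. TATAAA on the gene's strand, the TATA box core, occurred in 5 (8.33%) against 8.32%. The median log2 fold change was 0.35 with and 0.38 without CCGGAAG, and 0.36 with and 0.39 without GGGCGG. A match describes the sequence and does not show that a factor binds there.

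On the deposited scale the family was higher in the cisplatin libraries, and this direction turned after centring on the T cell markers. With limma's moderated test and Benjamini-Hochberg adjustment over all tested genes, 66 of the 77 tested members were higher at an adjusted p under 0.05 and none was lower, where 27.5% of all tested genes were called higher and 29.0% lower. Among the 301 other genes at 100 FPKM or more, 51.5% were called higher and 32.6% lower, so a call in this direction was common at the levels of ribosomal protein genes. No member passed the threshold together with a 2-fold change, which 4.11% of all tested genes did upwards and 12.8% downwards. The estimate was positive for 76 members and negative for 1, Rpl7a. The median log2 fold change was 0.37 (1.29-fold), with quartiles of 0.30 and 0.42, against a median of 0.03 over all tested genes and 0.16 over the other genes at 100 FPKM or more.

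After centring on the T cell markers, no member was higher and 42 of the 77 (54.5%) were lower, where 63.4% of all tested genes were lower and 5.37% higher. The median log2 fold change of the members was then -0.16, and 72 of them had a negative estimate. The gap between the median of the members and that of all tested genes was 0.34 on both scales, since centring moves every gene alike. Under quantile normalisation that gap was 0.08, with 57 members higher and 1, Rplp0, lower.

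**Figure D1:**
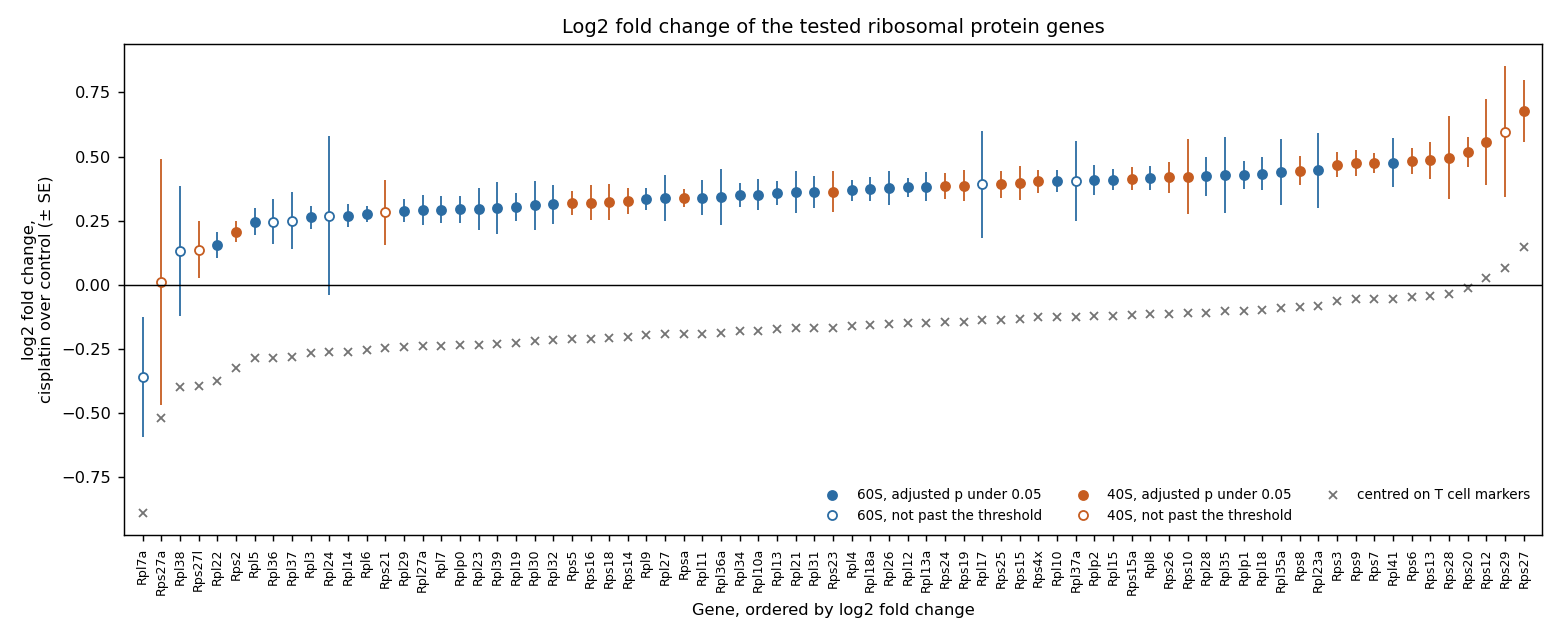
Log2 fold change, cisplatin over control, of 75 of the 77 tested ribosomal protein genes in order of size, with bars of 1 SE from 3 libraries per group. Filled points passed an adjusted p of 0.05, and on the deposited scale all but Rpl7a lie above 0, whereas the crosses, centred on T cell markers, lie below 0 for 72 of these genes.

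Ribosomal protein genes took 6.77%, 7.14% and 6.73% of all reads on genes in the 3 cisplatin libraries. In the control libraries they took 4.76%, 5.07% and 5.36%. The groups did not overlap, with 6.88% ± 0.224 against 5.06% ± 0.297 (SD, n = 3 each), a ratio of 1.36 (exact permutation test, two-sided, p = 0.1, the smallest that 3 libraries against 3 allow). As a share of summed FPKM, which weights each read by the inverse of gene length, the ratio was 1.27. These shares are fractions of whole libraries, in which tumour markers were lower and lymphoid and myeloid markers higher in the cisplatin group.

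Both subunits moved, and on the deposited scale the 40S genes moved slightly more. Of the 31 tested 40S genes, 27 were higher, with a median log2 fold change of 0.41, and of the 46 tested 60S genes, 39 were higher, with a median of 0.35 (after centring, -0.12 and -0.19). The ratio of reads on 40S genes to reads on 60S genes does not depend on how libraries are scaled. It was 0.731, 0.726 and 0.723 in the cisplatin libraries and 0.697, 0.694 and 0.695 in the controls. The 2 sets of 3 did not overlap, and the ratio was 1.05 times higher with cisplatin (exact permutation test, two-sided, p = 0.1, the smallest possible).

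**Figure D2:**
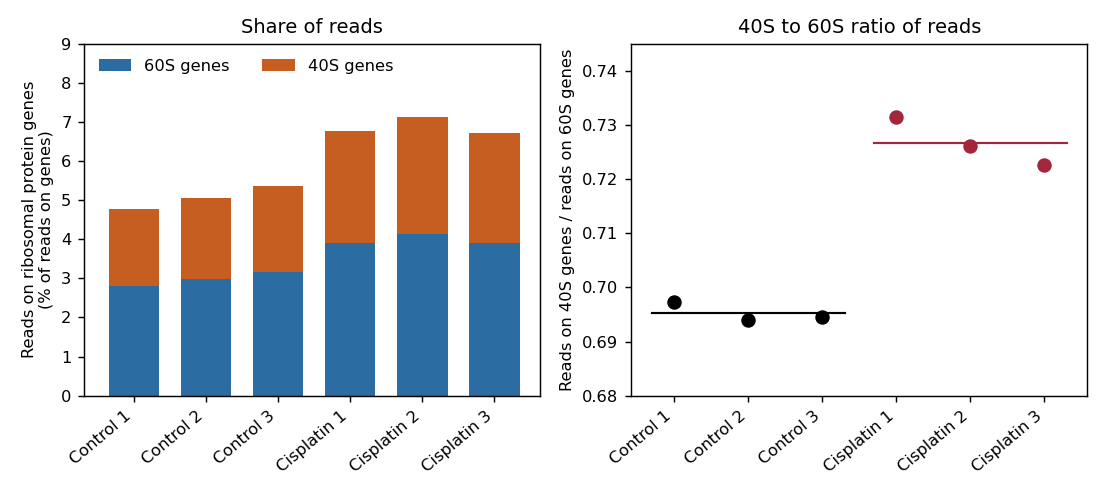
Left, percent of reads on genes that fell on 60S and 40S ribosomal protein genes in each library, from 4.76% to 5.36% in the controls and from 6.73% to 7.14% in the cisplatin libraries. Right, reads on 40S genes over reads on 60S genes in each library, with group means as lines on an axis that does not start at 0, where the 3 cisplatin points (0.723 to 0.731) lie above the 3 control points (0.694 to 0.697).

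Within each group the same library was the highest for most members. The cisplatin 2 library was the highest of its group for 65 of the 77 tested members, and control 3 was the highest control for 65. Control 1 was the lowest control for 67, whereas the lowest cisplatin library was cisplatin 1 for 46 members and cisplatin 3 for 27. The mean log2 level over the members was 8.26, 8.40 and 8.29 in the cisplatin libraries and 7.84, 7.97 and 8.05 in the controls, so that the groups stayed apart although the controls spread by 0.105 (SD). Over the members, Spearman's rho between the deviation of a library from its group mean and the length of the transcript was 0.34, -0.47 and -0.12 in cisplatin 1, 2 and 3 and 0.39, -0.33 and -0.28 in control 1, 2 and 3, a description over genes that share a library. Libraries with the same number had the same sign. The 38 members with the shorter transcripts had a median log2 fold change of 0.35 and the 39 with the longer ones 0.37. These lengths, also used for the levels per kilobase below, are those of the annotated principal transcript. The longest was taken where several ranked alike, and lengths ran from 345 to 5179 bases. Other choices of transcript were not tested.

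**Figure D3:**
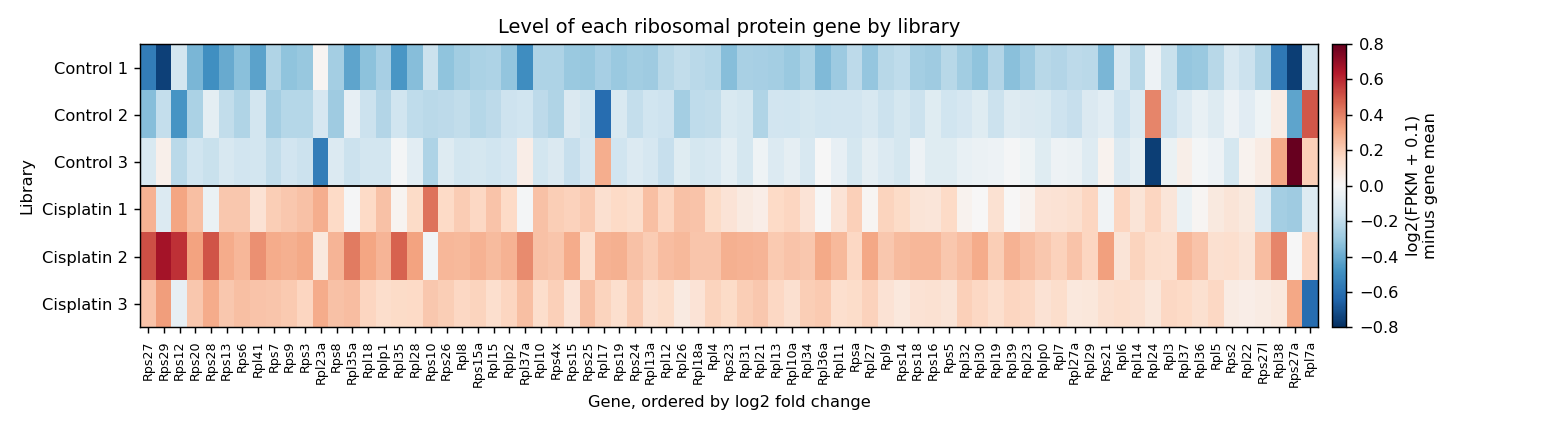
Level of 75 of the 77 tested ribosomal protein genes in each library as log2(FPKM + 0.1) minus the mean of the gene over the 6 libraries, ordered by log2 fold change; values beyond the colour bar take its end colour. Most genes are lowest among the controls in control 1 and highest among the cisplatin libraries in cisplatin 2, and Rps27a in control 3 stands out.

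The largest called changes were in 40S genes. Rps27, which encodes a zinc-binding protein at the messenger exit side of the subunit (ENSMUSG00000090733, chr3:90212522-90213651), stood at 369, 436 and 357 FPKM in the cisplatin libraries and at 208, 240.5 and 280.2 FPKM in the controls. Every cisplatin library was above every control, and the log2 fold change was 0.68 ± 0.12 (SE, limma adjusted p = 0.0031), or 0.15 after centring.

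Rps20, a protein of the subunit head, was at 216, 229 and 213 FPKM against 142, 153 and 164 FPKM (0.52 ± 0.06, adjusted p = 0.00032). Its groups did not overlap, and after centring it was at -0.01. Rps12, another protein of the head, was at 219, 264 and 168 FPKM against 159, 127 and 152 FPKM (0.56 ± 0.17, adjusted p = 0.028). Its groups were separated by the smallest margin of these 3 genes, and leaving out any of cisplatin 1, cisplatin 2, control 2 or control 3 ended the call, with adjusted p from 0.058 to 0.088.

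Rps29, a small zinc-binding 40S protein, had an estimate in the same range but did not pass the test. It was at 203, 348 and 277 FPKM in the cisplatin libraries and at 130.4, 192 and 226 FPKM in the controls. Cisplatin 1 lay below control 3, and the log2 fold change was 0.60 ± 0.26 (adjusted p = 0.089, or 0.038 without cisplatin 1).

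The smallest called changes lay in Rpl22, Rps2, Rpl5, Rpl3 and Rpl14. Rpl22, an RNA-binding 60S protein needed for the development of αβ T cells, was at 123, 125 and 120.3 FPKM in the cisplatin libraries and at 103, 109 and 119 FPKM in the controls. The highest control lay just under the lowest cisplatin library, and the log2 fold change was 0.15 ± 0.05 (adjusted p = 0.042, or -0.38 after centring). Its call was lost without any of cisplatin 1, 2 or 3 or control 1 or 2 (adjusted p 0.074 to 0.11). Rps2, a protein at the messenger entry of the 40S subunit, was at 816, 834 and 794 FPKM against 694, 736 and 689 FPKM, a log2 fold change of 0.21 ± 0.04 (adjusted p = 0.0045, or -0.32 after centring).

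In the 5S particle, Rpl5 and Rpl11 carry the 5S RNA into the 60S subunit. The particle can bind the p53 regulator Mdm2 when ribosome assembly fails. Both members were higher on the deposited scale and lower after centring. On the deposited scale 27.5% of all tested genes and 51.5% of the other genes at 100 FPKM or more were called higher. After centring 63.4% of all tested genes were called lower. Rpl5 was at 326, 337 and 346 FPKM in the cisplatin libraries and at 265, 287 and 299.7 FPKM in the controls. Rpl11 was at 302, 336 and 308 FPKM against 229, 252 and 268 FPKM. For both genes all cisplatin libraries exceeded all controls, with log2 fold changes of 0.25 ± 0.05 (adjusted p = 0.0064) and 0.34 ± 0.07 (adjusted p = 0.005), and of -0.29 and -0.19 after centring.

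The P stalk is the flexible arm of the 60S subunit that recruits translation factors. On the deposited scale 4 of 4 members were higher, where 27.5% of all tested genes were, with a median log2 fold change of 0.39. After centring 2 of 4 were lower, where 63.4% of all tested genes were. Rplp0, the base of the stalk (ENSMUSG00000067274, chr5:115559467-115563727), held 5.74% of all reads on ribosomal protein genes. It was at 2189, 2360.4 and 2204 FPKM in the cisplatin libraries and at 1742, 1866 and 1901 FPKM in the controls. The groups did not overlap (0.29 ± 0.05, adjusted p = 0.0033), but the direction turned under quantile normalisation (-0.39) as well as after centring (-0.24). Rplp1, its acidic partner, was at 2356, 2415 and 2208 FPKM against 1670.4, 1707 and 1809.8 FPKM (0.43 ± 0.05, adjusted p = 0.00055), with the direction turned under quantile normalisation (-0.02) and centring (-0.10). Rplp2, the other acidic protein, and Rpl12, which anchors near the stalk base, had log2 fold changes of 0.41 ± 0.06 (adjusted p = 0.001) and 0.38 ± 0.04 (adjusted p = 0.00017), or -0.12 and -0.15 after centring.

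Elsewhere in the ribosome the counts were alike on the deposited scale, and the medians of all of the following groups turned negative after centring. Beside these counts, 27.5% of all tested genes and 51.5% of the other genes at 100 FPKM or more were called higher. Around the peptidyl transferase centre, Rpl3, Rpl8 and Rpl10 were all higher (3 of 3, median 0.40). At the exit tunnel for the growing chain, 7 of 8 genes were higher (median 0.37), with Rpl17 as the exception. At the messenger entry and decoding site, Rps2, Rps3, Rps23 and Rps15 were all higher (4 of 4, median 0.38), and Rps15 was the third most abundant member by FPKM, at 1320.2, 1423 and 1252 FPKM against 945, 1069 and 1021 FPKM (0.40 ± 0.07, adjusted p = 0.0022). At the messenger exit and platform, 6 of 6 genes were higher (median 0.38), among them Rpsa, which also has a role as a laminin receptor (0.34 ± 0.04, adjusted p = 0.00023). Of 19 ribosomal protein genes mutated in Diamond-Blackfan anaemia, an inherited failure of red cell production, 18 were higher (median 0.42), including Rps19, the gene most often affected (0.39 ± 0.06, adjusted p = 0.0017), and Rps29 was not called. Rps6, the substrate of S6 kinase downstream of mTOR, was at 997, 1033 and 1015 FPKM against 682, 728 and 770.5 FPKM (0.48 ± 0.05, adjusted p = 0.00023, or -0.05 after centring).

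The test was not passed by 11 of the 77 members, namely Rps29, Rpl37a, Rpl17, Rps21, Rpl24, Rpl37, Rpl36, Rps27l, Rpl38, Rps27a and Rpl7a. For 10 of them the groups overlapped, and the exception was Rpl36, an outer 60S protein (0.25 ± 0.09, adjusted p = 0.053), which was called without cisplatin 1 (adjusted p = 0.044) or control 3 (adjusted p = 0.043). Of the 77 tested members, 66 had every cisplatin library above every control, where 31.9% of all tested genes and 53.2% of the other genes at 100 FPKM or more did so.

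Rpl7a, a 60S protein near the 5.8S RNA and the only member with a negative estimate (ENSMUSG00000062647, chr2:26910764-26913318), was at 209, 254 and 148 FPKM in the cisplatin libraries and at 203, 318 and 257 FPKM in the controls. The lowest and the highest values of the gene belonged to different groups, but the rest overlapped, and the log2 fold change was -0.36 ± 0.23 (adjusted p = 0.23). Of the alternatives run, only centring called it lower (-0.89, adjusted p = 0.01). Rps27a, which encodes ubiquitin fused to a 40S protein (ENSMUSG00000020460, chr11:29545846-29548109), was at 86.9, 106 and 131 FPKM against 63.0, 79.3 and 236 FPKM. Control 3 was far above the other controls, and the log2 fold change of 0.01 ± 0.48 (adjusted p = 0.99) became 0.59 (adjusted p = 0.046) without it. Rpl17, which lines the exit of the tunnel, was at 771, 857 and 797 FPKM against 587, 462 and 861 FPKM. Here too control 3 was the highest library of all, and the log2 fold change of 0.39 ± 0.21 (adjusted p = 0.16) became 0.63 (adjusted p = 0.0053) without control 3. The overlap of the Rpl17 groups was absent once reads on its close copies were added, as given below.

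Many mouse ribosomal protein genes have processed pseudogenes, copies made by reverse transcription that can be nearly identical to the gene and can take its reads. In the GENCODE M21 transcripts, 1813 pseudogenes and copies in the table matched a member with at least 80% identity over at least 150 bases, and 1097 of them held reads. Together they held 7.13% of the reads of the family and its copies, and for 25 of the 77 tested members they held at least 10%. The rule also took in partial matches that are not near-identical, and their reads are part of these shares. Rpl7l1 matched Rps16 with 88.1% identity over 151 bases (13606 reads). The pseudogene Ppp4r1l-ps matched Rpl23 with 80.1% identity over 166 bases (8506 reads). The members in this group had a median log2 fold change of 0.36, and the other 52 had 0.38, but values spread more in the first (-0.36 to 0.68) than in the second (0.14 to 0.62). The spread between replicates was also wider, with a median SD of 0.147 against 0.0809 on the log2 scale.

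Rps10, a 40S protein at the messenger entry (ENSMUSG00000052146, chr17:27630418-27636669), showed this most strongly. It was at 2.27, 1.63 and 1.94 FPKM in the cisplatin libraries and at 1.46, 1.41 and 1.38 FPKM in the controls, and 98.1% of the reads of the gene and its copies lay on copies. Its log2 fold change was 0.42 ± 0.15 (adjusted p = 0.046), and the call was lost without any library other than cisplatin 2 (adjusted p 0.085 to 0.13). A single processed pseudogene, Rps10-ps2, which matched with 99.0% identity, was at a mean of 382 FPKM. Rpl24, a 60S protein at the bridge to the small subunit (ENSMUSG00000098274, chr16:55966275-55971435), was at 0.990, 0.967 and 0.929 FPKM against 0.841, 1.17 and 0.475 FPKM, with 95.6% of reads on copies. Low listed levels of these genes are therefore levels of the reads assigned to them, and reads of near-identical copies cannot be told apart from theirs with certainty.

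Adding the reads of copies to each member, an alternative chosen after the data were seen, gave nearly the same family values. The median log2 fold change was 0.36, 75 members were positive, and 65 of 77 had groups that did not overlap. Single members moved. Rps27 moved from 0.68 to 0.43, since a protein-coding copy identical to it over the aligned bases, Rps27rt, was at 214, 326 and 481 FPKM in the cisplatin libraries and at 310.5, 399.8 and 441 FPKM in the controls (-0.24 ± 0.29, adjusted p = 0.52). Rpl7a moved from -0.36 to -0.17, and Rpl24 from 0.27 to -0.03. Rps10 stayed at 0.41. Rpl17, with 47.3% of reads on copies, stayed at 0.39, but its groups no longer overlapped. Its SD between replicates fell from 0.325 to 0.126. The groups of Rps28 and Rpl23a went the other way and overlapped once copies were added.

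**Figure D4:**
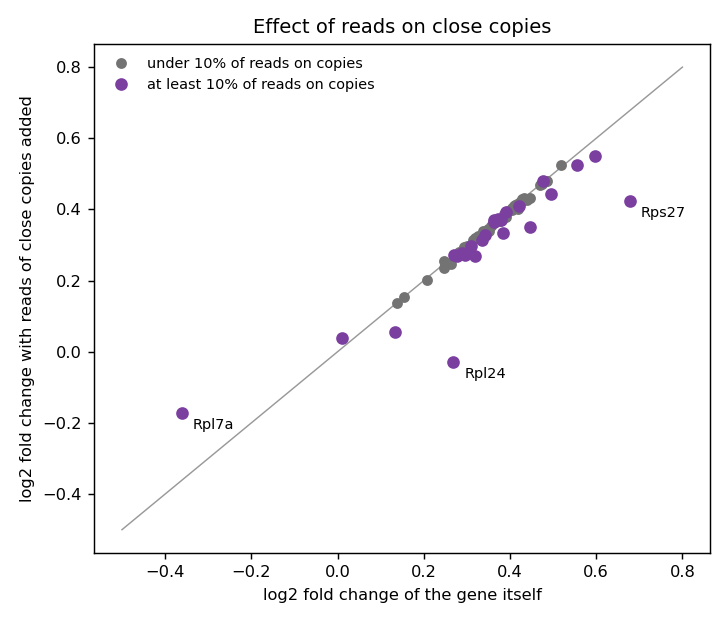
Log2 fold change of 75 of the 77 tested members from its own reads (x axis) and after the reads of its close copies were added (y axis), on the scale not centred on T cell markers. Points lie near the line of equality except Rps27 (0.68 to 0.43), Rpl24 (0.27 to -0.03) and Rpl7a (-0.36 to -0.17), all with at least 10% of reads on copies.

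Levels also differed widely within the family. Per kilobase of the principal transcript, Rplp0 had the highest mean level over the 6 libraries (2497), followed by Rplp1 (2028) and Rpl13 (2026), and the lowest tested members were Rpl24 (1.36), Rps10 (4.38), Rpl13a (26.3) and Rpl21 (52.9). These last 4 all had at least 20.3% of reads on copies. Such shares also occurred at higher levels, as in Rpl17 (47.3% on copies, level 723) and Rps12 (33.8%, level 630). Over the 6 libraries Rps10 held 737 reads and its copies 38651, whereas Rpl13a held 5222 and its copies 1331. How far reads on copies account for the low levels was not tested. The gene length used for FPKM was 1 to 6.81 times that of the principal transcript, with a median of 2.02, so an order by FPKM alone differs. Spearman's rho between the log2 fold change and the level per kilobase of principal transcript was 0.08 over the 77 members, a description over genes of the same libraries.

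Several members have a paralogue whose protein can take its place in the ribosome. Rpl39l, Rpl3l and Rpl10l, known from testis or muscle, were too low to test. Rpl39l had 16, 7 and 19 reads in the cisplatin libraries and 2, 2 and 3 in the controls, and Rpl3l had 6, 16 and 8 reads against 1, 2 and 4. Both were higher in every cisplatin library than in any control, at 0.254 to 0.705 and 0.113 to 0.294 FPKM. Rpl10l had a count of 0 in all 6 libraries, which allows up to 3 reads in each.

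Among paralogues with more reads, Rps27l, a p53 target that differs from Rps27 by few residues, was at 48.3, 62.1 and 54.7 FPKM in the cisplatin libraries and at 44.2, 51.0 and 54.6 FPKM in the controls. The groups overlapped, and its log2 fold change of 0.14 ± 0.11 (adjusted p = 0.33) stood beside 0.68 for Rps27, a difference that was not tested. Rpl22l1, the paralogue of Rpl22, was at 20.6, 21.7 and 19.4 FPKM against 17.6, 18.8 and 17.2 FPKM (0.20 ± 0.06, adjusted p = 0.019, or -0.33 after centring). Rpl7l1, which acts in ribosome assembly, was at 20.9, 21.4 and 20.6 FPKM against 20.3, 20.5 and 19.98 FPKM (0.05 ± 0.03, adjusted p = 0.25, or -0.48 after centring). Rpl36al was at 0.0247 to 1.05 FPKM over the 6 libraries, with overlapping groups (adjusted p = 0.18).

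The name rule left out 13 protein-coding genes named Rpl or Rps with other endings, and counting every such name gave 69 called higher of 88 tested. Rps3a1, which encodes a core 40S protein, was by far the most abundant of them, at 1499.9, 1551 and 1523 FPKM in the cisplatin libraries and at 1034, 1075 and 1114 FPKM in the controls. Its groups did not overlap (0.51 ± 0.04, adjusted p = 6.8e-05, or -0.03 after centring).

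A few ribosomal proteins are encoded by genes with other names. Rack1, a scaffold on the head of the 40S subunit, was at 363, 354 and 346 FPKM in the cisplatin libraries and at 274, 276 and 284 FPKM in the controls (0.35 ± 0.03, adjusted p = 0.00011, or -0.18 after centring). Fau, which encodes a ubiquitin-like protein fused to a 40S protein, was at 1254, 1363 and 1233 FPKM against 1196, 1321 and 1323 FPKM. Its groups overlapped, with a log2 fold change of 0.00 ± 0.06 (adjusted p = 0.96, or -0.53 after centring).

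Genes that build and run the ribosome were compared by list. The counts below stand beside 27.5% of all tested genes called higher and 29.0% called lower on the deposited scale. After centring these shares were 5.37% and 63.4%. Of 55 ribosome assembly factors, 46 were higher and 2 lower on the deposited scale, with a median log2 fold change of 0.41 (-0.13 after centring, with 6 higher and 24 lower). Heatr1, a factor of the small subunit processome, was at 13.3, 12.5 and 13.0 FPKM in the cisplatin libraries and at 6.40, 5.97 and 6.29 FPKM in the controls (1.04 ± 0.05). Ddx21, a nucleolar RNA helicase, was at 52.6, 51.4 and 53.7 FPKM against 26.0, 27.6 and 27.2 FPKM (0.96 ± 0.04), and both genes had groups far apart. The 2 lower factors were Polr1a, the largest subunit of RNA polymerase I (-0.39 ± 0.06), and Sbds, which helps release a factor from new 60S subunits (-0.25 ± 0.03).

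Mitochondrial ribosomal proteins gave other counts. Of 77 tested, 12 were higher and 12 lower, with a median of 0.02 on the deposited scale (-0.51 after centring). Mrpl33 was the lowest, at 2.71, 2.40 and 2.69 FPKM in the cisplatin libraries and at 5.72, 5.63 and 5.44 FPKM in the controls (-1.08 ± 0.07). Mrpl20 was the highest, at 12.7, 12.7 and 10.2 FPKM against 7.45, 7.36 and 7.81 FPKM (0.64 ± 0.09).

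Of 10 elongation and termination factors, 8 were higher and 2 lower (median 0.21, or -0.32 after centring). Eef2, which moves the ribosome along the messenger, was at 2267, 2276 and 2265 FPKM in the cisplatin libraries and at 1691, 1768 and 1673 FPKM in the controls (0.41 ± 0.04, or -0.12 after centring). Etf1, which recognises stop codons, and Eif5a, which frees stalled ribosomes, were the lower ones (-0.25 ± 0.03 and -0.11 ± 0.03). Of 34 initiation factors, 13 were higher (38.2%, where 27.5% of all tested genes were) and 5 lower (median 0.04, or -0.49 after centring). Of 19 other messengers of the TOP class, some of which stand in the lists above, 14 were higher and 1 lower (median 0.19, or -0.34 after centring), among them Eef1a1, the carrier of aminoacyl-tRNA (0.23 ± 0.04, or -0.31 after centring), and Tpt1, a growth-related protein (0.28 ± 0.05, or -0.25 after centring).

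Of 16 genes that control ribosomal protein synthesis, 7 were higher and 4 lower (median 0.04, or -0.49 after centring). Ubtf, which activates transcription of ribosomal RNA, was at 40.6, 42.8 and 43.4 FPKM in the cisplatin libraries and at 27.8, 27.4 and 27.0 FPKM in the controls (0.62 ± 0.04). Mtor, the kinase at the centre of growth control, was at 9.17, 9.67 and 10.1 FPKM against 14.4, 13.9 and 14.6 FPKM (-0.56 ± 0.05). Eif4ebp1, a translation repressor that mTOR inactivates, was at 20.2, 19.95 and 18.4 FPKM against 57.5, 62.8 and 62.9 FPKM (-1.64 ± 0.05), and none of these 3 genes had overlapping groups. Eif4ebp2, a paralogue of Eif4ebp1, moved the other way, at 73.9, 76.7 and 81.2 FPKM against 53.9, 53.7 and 55.2 FPKM (0.51 ± 0.04, adjusted p = 6.1e-05, or -0.02 after centring). Larp1, which binds the TOP motif, was at 57.0, 56.9 and 60.2 FPKM against 47.4, 48.8 and 45.9 FPKM (0.29 ± 0.04, adjusted p = 0.00067, or -0.24 after centring). Tsc1, part of the complex that restrains mTOR, changed by 0.37 ± 0.06 (adjusted p = 0.0013), or -0.16 after centring. Myc, a transcription factor that drives ribosome production, changed by 0.17 ± 0.03 (adjusted p = 0.0038), or -0.36 after centring.

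**Figure D5:**
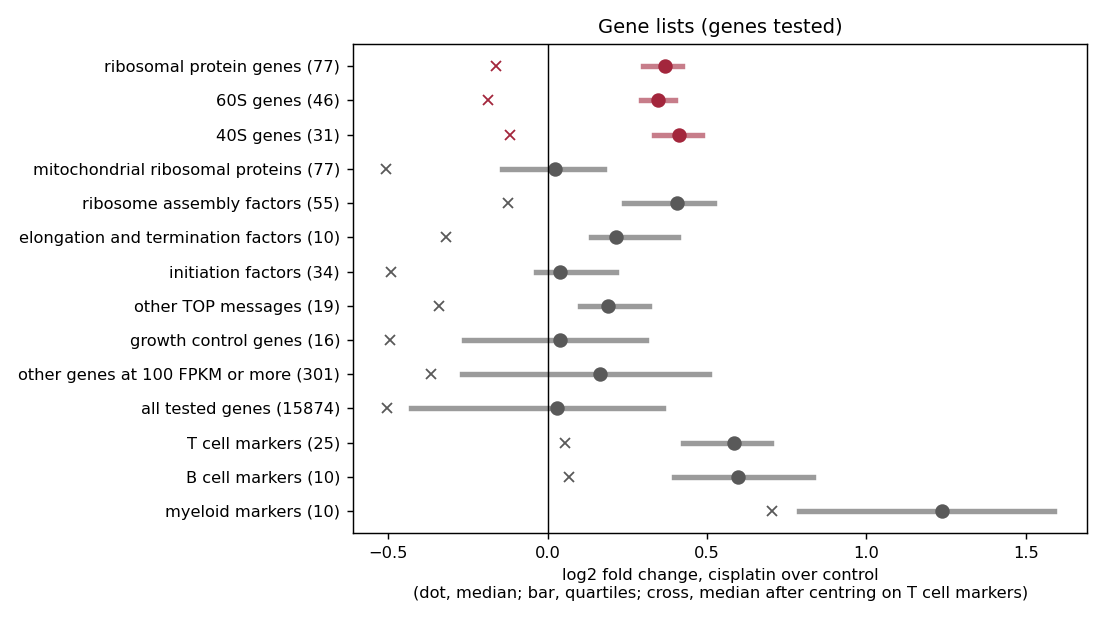
Median log2 fold change, cisplatin over control (dots), with quartiles (bars) and the median after centring on T cell markers (crosses), for ribosomal protein genes, other lists of translation, all tested genes and cell type markers, with the number tested in brackets. Ribosomal protein genes (0.37, or -0.16 after centring) and assembly factors (0.41, or -0.13) lie above mitochondrial ribosomal proteins (0.02, or -0.51) and initiation factors (0.04, or -0.49), and below T cell markers (0.59) and B cell markers (0.60).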

How the data were processed

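Gene-level FPKM values of 6 libraries (3 cisplatin, 3 control) were deposited by the authors in a single table, which held 0 further sample columns. The submitters' processing notes name fastp, HISAT2 2.0.5, featureCounts 1.5.0-p3 and mm10, whereas the study's methods name another aligner, and the strand setting is not given in the sources used here. FPKM values were whole multiples of the value of 1 read (100.0% of values within 0.1 of a whole number), which gave back 30606569 to 32169496 reads on genes per library. The FPKM denominator was 1.03 to 1.05 times that total in the cisplatin libraries and 0.976 to 0.982 times in the controls, which alone shifts every log2 fold change by -0.08 on the deposited scale and differs with the treatment. Read shares and limma voom do not use it. At these depths a tested member had at least 15 reads in every library, so counting error mattered most for Rps10 and Rpl24.

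Log2(FPKM + 0.1) was fitted with limma 3.58.1 (eBayes with a mean-variance trend, R 4.3.3) wherever the 6-library mean reached 0.5 FPKM, with Benjamini-Hochberg adjustment. Fold changes on this scale are slightly understated for low genes. Because the unit is FPKM, no count model was the main test, and limma voom on rebuilt reads was an alternative, beside other scalings, filters, pseudocounts and omitted libraries. Copies were found with blastn 2.17.0 on GENCODE M21, whose coordinates matched the table for 78 of the 80 members. Named genes were the 5 largest called rises and, as no member was called lower, the 5 smallest called rises. The others were the 3 highest in FPKM, the 5S particle, the P stalk, paralogues, and further genes given by name with their values. Some genes under this rule are not reported here. The members and lists were chosen with earlier results of these data known. Promoters came from RefSeq, GRCm38.p6.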

Additional observations from a re-analysis of the deposited data

How the results depend on the processing

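The count of 66 higher and 0 lower ribosomal protein genes was 55 to 67 higher and 0 lower when any 1 library was left out (median log2 fold change 0.32 to 0.40, read-share ratio 1.32 to 1.40). It was 57 to 73 higher under TPM, median-of-ratios scaling, limma voom on rebuilt reads, quantile normalisation, 2 other pseudocounts, other filters and a fit without the trend. Exceptions were centring on the T cell markers (0 higher, 42 lower, median -0.16, 60S genes -0.19 and 40S genes -0.12), quantile normalisation (1 lower, median 0.24), no filter on low values (1 gene, Rpl39l, higher at 2-fold) and the share of summed FPKM (ratio 1.27). The cause of these differences was not tested beyond the shift that centring applies by construction.

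Of the 80 ribosomal protein genes, these named in the text turned negative after centring: Rps27a (-0.52), Rpl38 (-0.40), Rps27l (-0.39), Rpl22 (-0.38), Rps2 (-0.32), Rpl5 (-0.285), Rpl36 (-0.28), Rpl37 (-0.28), Rpl3 (-0.27), Rpl24 (-0.26), Rpl14 (-0.26), Rps21 (-0.25), Rplp0 (-0.24), Rpl23 (-0.2355), Rps16 (-0.211), Rpsa (-0.19), Rpl11 (-0.19), Rpl13 (-0.17), Rpl21 (-0.17), Rps23 (-0.17), Rpl12 (-0.15), Rpl13a (-0.15), Rps19 (-0.14), Rpl17 (-0.14), Rps15 (-0.14), Rpl10 (-0.13), Rpl37a (-0.13), Rplp2 (-0.12), Rpl8 (-0.12), Rps10 (-0.11), Rplp1 (-0.10), Rpl18 (-0.0975), Rpl23a (-0.0844), Rps3 (-0.0625), Rps6 (-0.0475), Rps28 (-0.0354) and Rps20 (-0.0127). Quantile normalisation turned Rplp0 (-0.39) and Rplp1 (-0.0214), and TPM turned Rps27a (-0.009). Leaving out 1 library moved Rps27a between -0.36 and 0.59, Rpl38 between -0.12 and 0.32 and Rpl24 between -0.0399 and 0.53.

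The labels do not say that a replicate number marks a shared culture or day. Deviations of same-numbered libraries (1, 2 and 3) correlated at 0.02, -0.06 and -0.02 over all tested genes, on which the samples were treated as unpaired, but at 0.76, 0.22 and 0.39 over the ribosomal protein genes, where cisplatin 2 correlated best with control 3 (0.25). With the replicate block, 68 members were higher and 0 lower. Among the genes named, Rps12 (adjusted p = 0.053), Rpl22 (0.063) and Rps10 (0.072) then lost their call, and Rpl36 (0.01), Rpl37a (0.011), Rps29 (0.011), Rpl37 (0.018) and Rps21 (0.025) gained it.

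Of the lists, mitochondrial ribosomal proteins had 12 higher and 12 lower, but 22 and 7 with limma voom, 30 and 7 under quantile normalisation and 0 and 67 after centring. Depth limited the members with few reads, Rpl39l, Rpl3l, Rpl10l, Rpl24 and Rps10. Reads of near-identical copies limited Rps10, Rpl24, Rpl21 and Rpl17, among other members.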
